A study of Mus musculus with 8 samples.

Results

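The expression of 10 transcription factor genes of limb mesenchyme and mural cells, the pericytes and smooth muscle cells (SMCs) that wrap blood vessels, was examined in pericytes and SMCs sorted from mouse hindlimb muscle. The genes were Tbx18, Tbx15, Tbx4, Pitx1, Foxc1, Foxs1, Twist1, Twist2, Prrx1 and Meox2. They were chosen by name for their roles in limb mesenchyme and mural cells, with earlier results of these data known. The counts below therefore describe these genes and do not test them as a set. All 10 were found among the 37979 genes listed. Bulk RNAseq had been performed on 4 pericyte libraries and 4 SMC libraries, numbered from 1 to 4 in each group, and all 8 carry the same batch label. The expression level was given as FPKM, a fragment number corrected for the length of the transcript and for the total of mapped fragments.

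Both populations came from Ai14+/-;SM22α-Cre+ mice, 3 to 4 months old and of both sexes. In these mice, Cre recombinase under the SM22α promoter removes a stop cassette, so that a cell that has ever expressed Cre stays red with tdTomato. Pericytes were sorted as PDGFRβ+tdTomato- cells and SMCs as PDGFRβ+tdTomato+ cells, after exclusion of dead cells and of cells stained for CD31 (endothelial) or CD45 (hematopoietic). No treatment was given. Each library held about 60000 cells pooled from several sorts, and a PDGFRβ+ pericyte that expresses SM22α-Cre, as may occur next to arterioles, falls into the SMC group. The p values below therefore measure the spread between pooled libraries.

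Transcription factors bind DNA and switch other genes on or off, and the genes described here belong to 4 families named after their DNA-binding domains. The T-box genes, together with the homeobox gene Pitx1, help to give the limbs their identity and the mesenchyme its regional character. Forkhead genes such as Foxc1 and Foxs1 are expressed in mural cells, and Foxc1 is required for vascular development. The basic helix-loop-helix (bHLH) factors Twist1 and Twist2 act in mesenchyme that gives rise to connective tissue, and the homeobox genes Prrx1 and Meox2 are expressed in limb mesenchyme, with Prrx1 widely used to label its fibroblasts.

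The promoters of 4 of the genes are shown, because these genes include both Twist paralogs, the gene with the greatest difference of log2(FPKM + 1) between groups (Meox2) and the gene with the smallest (Tbx4). The sequences are the 250 bases before the start of each gene, from RefSeq (GRCm38.p6), 5′ to 3′ on the plus strand. Capitals mark E-boxes (CANNTG, the site bound by bHLH factors) and CCAAT boxes (CCAAT), both searched on both strands.
Twist1, chr12:33957421-33957670: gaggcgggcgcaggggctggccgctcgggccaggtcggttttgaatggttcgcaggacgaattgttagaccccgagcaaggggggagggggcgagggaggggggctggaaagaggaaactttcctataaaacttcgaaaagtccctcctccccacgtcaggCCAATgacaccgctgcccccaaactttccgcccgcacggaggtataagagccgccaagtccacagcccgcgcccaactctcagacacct
Twist2, chr1:91801211-91801460: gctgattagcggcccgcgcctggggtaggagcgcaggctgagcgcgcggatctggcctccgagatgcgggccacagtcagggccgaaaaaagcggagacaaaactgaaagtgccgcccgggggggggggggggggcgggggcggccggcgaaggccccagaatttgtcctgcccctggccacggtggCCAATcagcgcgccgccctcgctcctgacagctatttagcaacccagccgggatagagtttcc
Meox2, chr12:37108290-37108539: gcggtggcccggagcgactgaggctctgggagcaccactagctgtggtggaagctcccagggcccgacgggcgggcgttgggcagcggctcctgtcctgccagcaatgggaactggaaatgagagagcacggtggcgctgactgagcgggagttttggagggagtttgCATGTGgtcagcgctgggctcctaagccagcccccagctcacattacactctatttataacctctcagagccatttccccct
Tbx4, chr11:85896515-85896764: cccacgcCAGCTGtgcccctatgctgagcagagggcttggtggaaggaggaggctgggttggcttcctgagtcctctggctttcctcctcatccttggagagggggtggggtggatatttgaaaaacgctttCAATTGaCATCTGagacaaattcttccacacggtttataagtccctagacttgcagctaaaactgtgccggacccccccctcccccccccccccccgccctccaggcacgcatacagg

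A promoter sequence was found for 7 of the 10 genes; Tbx15, Pitx1 and Foxs1 had none in the table. The Twist1 and Twist2 promoters each held 1 CCAAT box, starting 89 and 63 bases before the gene start, and no E-box. The Meox2 promoter held 1 E-box, 82 bases before the start, and the Tbx4 promoter held 3. Across the 7 promoters, an E-box was present in 3, where 66.2% of 32841 mouse promoters of the same length hold one, and a CCAAT box was present in 4, where 33.9% do. The letters TATAAA were present in 3 promoters, those of Twist1, Meox2 and Tbx4 (12.4% of all promoters), and the homeodomain motif TAATTA in the Prrx1 promoter (4.84% of all promoters). The T-box motif AGGTGTGA, the forkhead motif TGTTTAC and the CArG box were found in 0 of the 7, against 1.12%, 3.17% and 1.47% of all promoters. All motifs were searched on both strands. These matches describe only the letters in the window.

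The sorted populations were checked by markers of the cell types that muscle holds. All 10 mural markers, among them Pdgfrb, Rgs5, Acta2 and Myh11, were measured in both groups, and their summed FPKM ranged from 589 to 1857 in pericyte libraries and from 1744 to 5539 in SMC libraries, with 1 of 10 passing the test between groups and 6 of 10 higher in SMCs at an unadjusted p below 0.05 (limma). Taking the replicate number as a block in the fit, 5 of 10 passed. Pericyte libraries also held T cell markers (sum 1496 to 2356 FPKM, against 19.1 to 33.1 in SMC libraries) and B cell markers (761 to 1966 FPKM, against 8.84 to 30.1). SMC libraries held more of the fibro-adipogenic markers, those of the connective tissue progenitors between muscle fibers (5029 to 6788 FPKM, against 551 to 910 in pericyte libraries). They also held more of the tenocyte markers, those of tendon cells (2644 to 4106 FPKM, against 208 to 756), and of the endothelial markers (236 to 704 FPKM, against 54.0 to 99.1). No marker of any list was at 0 in all libraries. The part of these cells in the results below was not tested, and in bulk RNA fewer cells of a type cannot be told apart from less RNA per cell.

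Of the 10 genes, 8 were higher in SMCs at a q value (p value with Benjamini-Hochberg adjustment over 27414 genes, from limma) below 0.05, and 0 were higher in pericytes. Over all genes tested, 11.2% were higher in SMCs and 10.6% were higher in pericytes by the same rule. In 4 of the 10 genes, Meox2, Tbx15, Prrx1 and Twist2, the difference also exceeded 2 on the log2 scale, which 2.66% of all genes did in this direction and 3.24% in the other. With a pseudocount of 0.1 in place of 1, 7 of the 10 genes did so. The share of all genes was not counted at that pseudocount, and 2.66% does not apply to it. In 9 of the 10 genes every SMC library lay above every pericyte library, as in 12.5% of all genes. The median difference of log2(FPKM + 1), SMC minus pericyte, was 1.60 over the 10 genes and -0.02 over all genes tested. With a pseudocount of 0.1 the median over the 10 genes was 2.58, and that over all genes was not taken. The summed FPKM of the 10 genes was 12.7 to 23.4 in pericyte libraries and 104 to 135 in SMC libraries. The remaining gene, whose groups overlapped, was the hindlimb factor Tbx4.

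**Figure D1:**
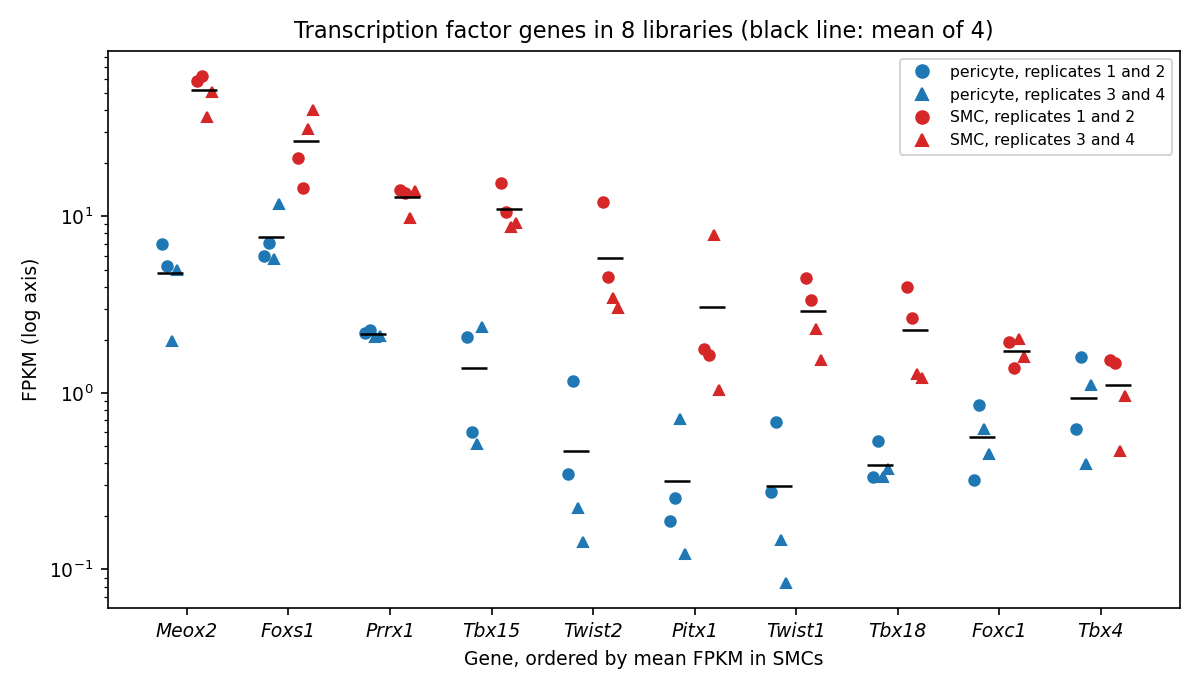
FPKM (log axis) of each of the 10 genes in 4 pericyte libraries (blue) and 4 SMC libraries (red), with circles for replicates 1 and 2, triangles for replicates 3 and 4 and black lines for group means. The groups are apart in 9 genes and overlap in Tbx4, and Meox2 reaches the highest level, between 36.8 and 62.3 FPKM in SMCs.

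The number of fragments behind these values was estimated first, since several of them are low. For genes with a single annotated transcript, low FPKM values are whole multiples of what 1 fragment is worth. Between 97.7% and 98.3% of values under 20 fragments fell within 0.1 of a whole fragment. By this measure the libraries had a depth equivalent to about 21690000 to 26650000 fragments. Of the 10 genes, 6 have a single transcript and could be expressed as fragments, whereas Tbx15, Tbx4, Pitx1 and Prrx1 have several. Such estimates give counting error only, and amplified fragments are not independent molecules.

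Among the T-box genes, Tbx18 encodes a repressor expressed in mural cells of many organs, and is located at chr9:87597635-87626095 (minus strand), with 8 exons; all gene positions are those of NCBI Build 37. Tbx18 had 0.336, 0.532, 0.332 and 0.371 FPKM in pericyte replicates 1 to 4, and 3.96, 2.66, 1.28 and 1.21 FPKM in SMC replicates 1 to 4. The SMC libraries were all above the pericyte libraries, and replicates 1 and 2 were the higher SMC libraries. The values rest on an estimated 36 to 51 fragments in a pericyte library and 142 to 434 in an SMC library. Tbx18 was higher in SMCs by 1.15 (standard error 0.26, limma q = 0.0193) on the log2(FPKM + 1) scale, which understates the change of low genes and is used for all log2 differences below. Without pericyte replicate 3 or SMC replicate 2 the limma q value was 0.0517 or 0.0534, and over all alternatives it ranged from 0.00612 to 0.0534.

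Tbx15, which acts in skeletal, dermal and adipose development, is located at chr3:99044304-99158182 (plus strand). It had 2.07, 0.5995, 0.516 and 2.37 FPKM in pericyte replicates 1 to 4, and 15.4, 10.6, 8.73 and 9.21 FPKM in SMC replicates 1 to 4. Pericyte replicates 2 and 3 were lower than pericyte replicates 1 and 4, and every SMC library was above all of them. Pericyte libraries averaged 1.39 ± 0.97 FPKM and SMC libraries 11.0 ± 3.04 FPKM (SD, n = 4 each), a 7.91-fold difference. Tbx15 was higher in SMCs by 2.39 (standard error 0.32, limma q = 0.00190). Of the 3 T-box genes it was the one at the highest level in SMCs.

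Tbx4 and Pitx1 are the factors that distinguish the developing hindlimb from the forelimb, with Pitx1 acting upstream of Tbx4. Tbx4 is located at chr11:85699924-85729599 (plus strand). It had 0.624, 1.61, 0.397 and 1.12 FPKM in pericyte replicates 1 to 4, and 1.53, 1.48, 0.467 and 0.960 FPKM in SMC replicates 1 to 4. The groups overlapped throughout, and replicate 3 was the lowest library in both. The log2 difference was 0.13 (95% interval -0.46 to 0.72, limma q = 0.782), and did not pass. All 8 libraries contained Tbx4 at a low level.

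Pitx1 is located at chr13:55926415-55937553 (minus strand). It had 0.188, 0.253, 0.708 and 0.122 FPKM in pericyte replicates 1 to 4, and 1.76, 1.65, 7.83 and 1.04 FPKM in SMC replicates 1 to 4. Replicate 3 was the highest library in both groups, and the groups did not overlap. For Pitx1 the log2 difference was 1.38 (standard error 0.45) and did not pass (limma q = 0.0700, unadjusted p = 0.0171). It passed in 5 of 17 alternative settings. Among them were a pseudocount of 0.1 (limma q = 0.0193), a fit of genes at 1 FPKM or more in at least 4 libraries (q = 0.0221) and TPM scaling (q = 0.04997). The others were the replicate number as a block (limma q = 0.0374) and the fit without SMC replicate 3, where the difference was 0.92 (q = 0.0188). Its q value ranged from 0.0188 to 0.143 over the alternatives.

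The forkhead genes Foxc1 and Foxs1 each consist of a single exon. Foxc1 is located at chr13:31898515-31902504 (plus strand). It had 0.320, 0.853, 0.628 and 0.449 FPKM in pericyte replicates 1 to 4, and 1.94, 1.39, 2.01 and 1.59 FPKM in SMC replicates 1 to 4. The groups did not overlap, and the SMC libraries were close to each other (mean 1.73 ± 0.29 FPKM, SD, n = 4). An estimated 29 to 69 fragments stood behind a pericyte value and 138 to 190 behind an SMC value. Foxc1 was higher in SMCs by 0.81 on the log2 scale (standard error 0.13, limma q = 0.00387), the smallest of the 8 that passed.

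Foxs1 encodes a forkhead factor found in vascular mural cells, and is located at chr2:152757634-152758944 (minus strand). It had 5.97, 7.02, 5.71 and 11.7 FPKM in pericyte replicates 1 to 4, and 21.4, 14.6, 31.4 and 40.0 FPKM in SMC replicates 1 to 4. In pericytes it was the highest of the 10 genes by mean, and its highest pericyte library lay below its lowest SMC library. Foxs1 was higher in SMCs by 1.65 on the log2 scale (standard error 0.34, limma q = 0.0129), with 151 to 323 fragments behind a pericyte value and 408 to 1113 behind an SMC value. Among SMCs, replicates 3 and 4 were the higher libraries, as they were for the summed mural markers.

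Twist1 and Twist2 encode closely related bHLH factors that act in mesenchyme and in epithelial-mesenchymal transition. Twist1 is located at chr12:34642536-34644682 (plus strand), and Twist2 at chr1:93698038-93744605 (plus strand). Twist1 had 0.274, 0.680, 0.146 and 0.0844 FPKM in pericyte replicates 1 to 4, and 4.46, 3.35, 2.29 and 1.53 FPKM in SMC replicates 1 to 4. The pericyte values rest on an estimated 9, 20, 5 and 3 fragments, so that their order is subject to counting error, whereas 55 to 150 fragments stood behind the SMC values. Twist1 was higher in SMCs by 1.55 on the log2 scale (standard error 0.26, limma q = 0.00484), and the ratio of mean FPKM was 9.81, or 17.3 without pericyte replicate 2.

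Twist2 had 0.348, 1.16, 0.223 and 0.143 FPKM in pericyte replicates 1 to 4, and 12.1, 4.52, 3.46 and 3.04 FPKM in SMC replicates 1 to 4. Pericyte replicate 2 was the highest pericyte library and SMC replicate 1 stood above the other SMC libraries. The pericyte values correspond to 4 to 27 fragments and the SMC values to 86 to 321. Twist2 was higher in SMCs by 2.08 on the log2 scale (standard error 0.40, limma q = 0.00954), with a ratio of mean FPKM of 12.3, and the difference was 1.71 without SMC replicate 1 (limma q = 0.00564). The ratio of means was 7.82 without SMC replicate 1 and 24.3 without pericyte replicate 2. For both Twist genes, replicates 1 and 2 were above replicates 3 and 4 within pericytes and within SMCs.

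The homeobox genes Prrx1 and Meox2 both exceeded a log2 difference of 2. Prrx1 is located at chr1:165175247-165243841 (minus strand), where it overlaps 2 other annotated genes, Gm20471 on the opposite strand and the noncoding Gm17698. It had 2.17, 2.27, 2.06 and 2.10 FPKM in pericyte replicates 1 to 4, and 14.1, 13.5, 9.85 and 13.8 FPKM in SMC replicates 1 to 4. The pericyte libraries had an SD of 0.0936 FPKM (n = 4), the smallest among the 10 genes, and SMC replicate 3 was lower than the other SMC libraries. Prrx1 was higher in SMCs by 2.12 on the log2 scale (standard error 0.11, limma q = 4.0e-05). Whether reads were counted by strand is not given in the sources used here, so reads of the overlapping genes cannot be told apart.

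Meox2, a homeobox factor of somites, limb muscle and vascular cells, is located at chr12:37835127-37908372 (plus strand). It had 6.96, 5.21, 1.96 and 4.94 FPKM in pericyte replicates 1 to 4, and 58.4, 62.3, 36.8 and 50.5 FPKM in SMC replicates 1 to 4. Replicate 3 was the lowest library in both groups, and the groups were far apart. The values rest on an estimated 215 to 734 fragments in pericyte libraries and 4059 to 7227 in SMC libraries. Meox2 was higher in SMCs by 3.26 on the log2 scale (standard error 0.32, limma q = 4.8e-04), the largest of the 10 on this scale, and the ratio of mean FPKM was 10.9.

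**Figure D2:**
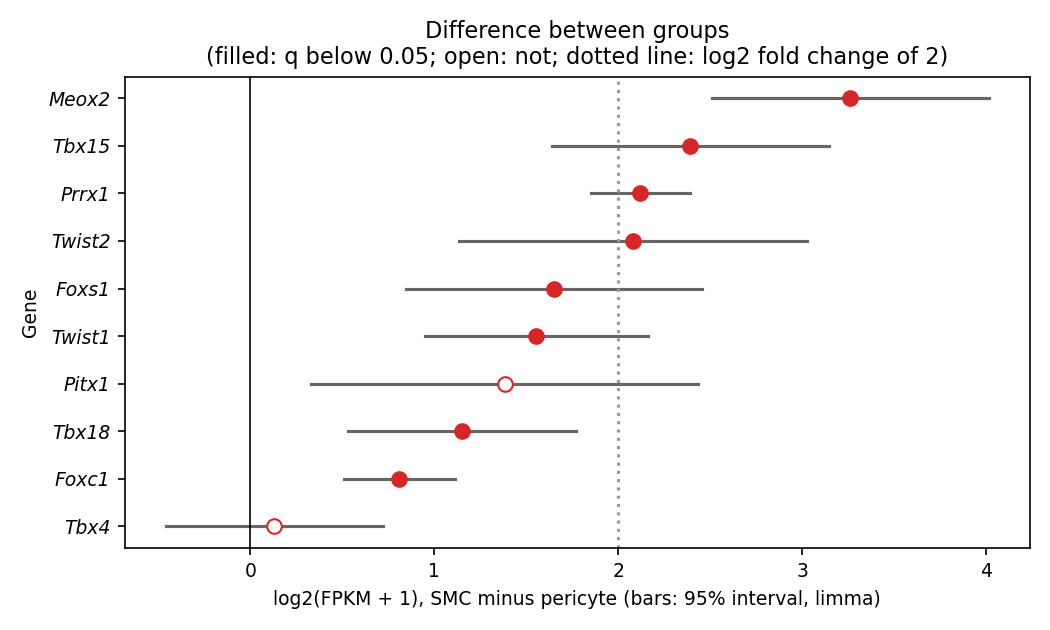
Difference of log2(FPKM + 1), SMC minus pericyte, for each of the 10 genes, with 95% intervals from limma, filled points for a q value below 0.05 and a dotted line at 2. All 10 estimates are above 0, from 0.13 for Tbx4 to 3.26 for Meox2, and the interval of Tbx4 includes 0.

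The order of the genes by mean FPKM differed between the groups. FPKM is scaled by transcript length, so levels can be set side by side. In SMCs the order was Meox2, Foxs1, Prrx1, Tbx15, Twist2, Pitx1, Twist1, Tbx18, Foxc1 and Tbx4. Between neighbours in that order the ranges over the 4 libraries overlapped, apart from Foxs1 and Prrx1. In pericytes the order was Foxs1, Meox2, Prrx1, Tbx15, Tbx4, Foxc1, Twist2, Tbx18, Pitx1 and Twist1, and each neighbouring pair overlapped. The mean reached 1 FPKM for all 10 genes in SMCs and for 4 of them in pericytes.

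Ratios of related genes were then taken within each library, since such a ratio does not depend on how a library was scaled except through the pseudocount. The ratios are given as log2 of (FPKM + 1) over (FPKM + 1), for 6 pairs. Tbx15 over Tbx18 averaged 0.69 ± 0.65 in pericyte libraries and 1.92 ± 0.27 in SMC libraries (SD, n = 4 each; exact permutation p = 0.0286, two-sided, the smallest that 4 against 4 allows). The groups did not overlap, and the p value adjusted over 6 pairs was 0.0857. Foxc1 over Foxc2, a paralog at 0.139 to 0.588 FPKM in SMCs, averaged 0.34 ± 0.20 in pericyte libraries and 0.96 ± 0.20 in SMC libraries (SD, n = 4 each), with the same exact p values. Neither pair passed after adjustment. They could not have passed unless more of the 6 pairs had also reached that smallest p, so the adjusted value decides little here. With a pseudocount of 0.1 the exact permutation p values were 0.229 and 0.257.

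Twist2 over Twist1 was 0.08 to 0.37 in pericyte libraries and 0.34 to 1.26 in SMC libraries, so the groups overlapped (exact permutation p = 0.0571, adjusted p = 0.114). The difference of 0.53 fell to 0.33 without SMC replicate 1 (exact permutation p = 0.0857). It was 0.64 without SMC replicate 2 and 0.56 with TPM scaling (exact permutation p = 0.0286 for each, not adjusted). The paralog of Meox2, Meox1, had 1.41 to 3.49 FPKM in pericytes and 23.6 to 34.8 FPKM in SMCs, and passed with a log2 difference of 2.96 (limma q = 1.5e-04). The ratio of Meox2 over Meox1 averaged 0.58 ± 0.68 in pericyte libraries and 0.88 ± 0.30 in SMC libraries (SD, n = 4 each, exact permutation p = 0.514). The difference of 0.30 became 0.0033 without pericyte replicate 3 and 0.54 without pericyte replicate 4. Prrx2, the paralog of Prrx1, had 15.7, 3.997, 1.79 and 0.775 FPKM in SMC replicates 1 to 4, and the ratio of Prrx1 over Prrx2 did not pass (exact permutation p = 0.571). Without SMC replicate 1, the highest in Prrx2, the difference of this ratio went from 0.41 to 0.99 (exact permutation p = 0.0286, not adjusted). It turned to -0.53 with a pseudocount of 0.1 and to -0.081 without SMC replicate 4.

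Tbx5, the forelimb relative of Tbx4, was at 0 to 0.0626 FPKM in pericyte libraries and at 0.0511 to 0.707 FPKM in SMC libraries. Tbx4 was the higher of the pair in every library other than SMC replicate 3. The ratio of Tbx4 over Tbx5 averaged 0.89 ± 0.37 in pericyte libraries and 0.59 ± 0.68 in SMC libraries (SD, n = 4 each, exact permutation p = 0.429). Both genes are low, and the difference of -0.29 became -1.54 with a pseudocount of 0.1 (exact permutation p = 0.171) and -0.024 without SMC replicate 3.

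**Figure D3:**
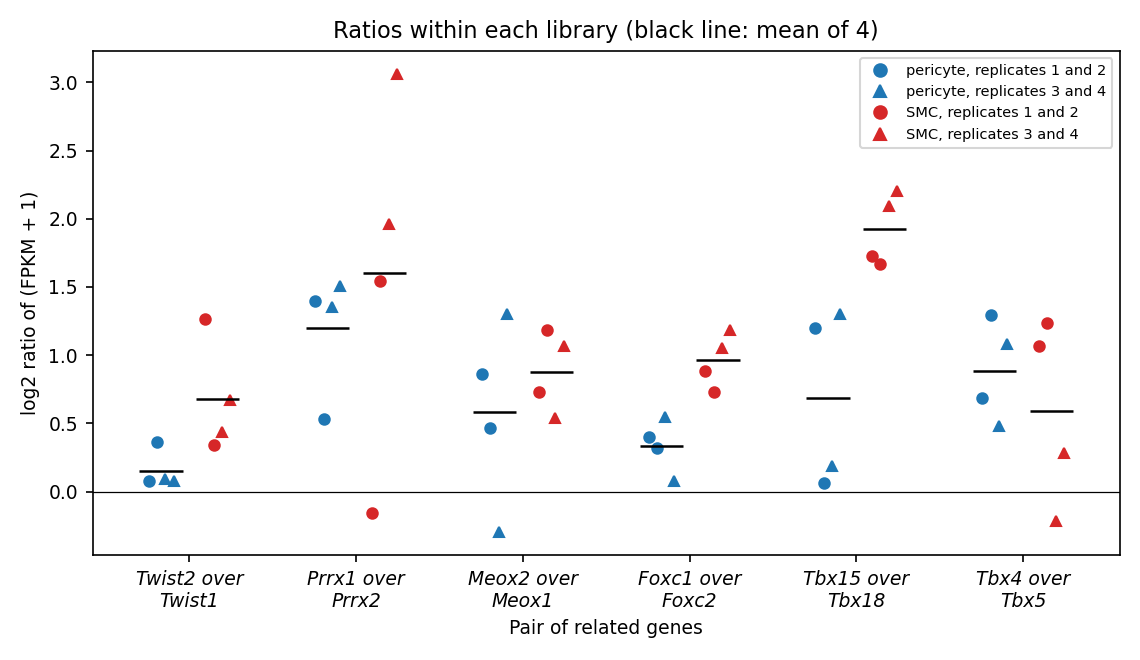
Log2 ratio of (FPKM + 1) for 6 pairs of related genes in each pericyte library (blue) and SMC library (red), with black lines for the means of 4. The groups are apart for Tbx15 over Tbx18 and for Foxc1 over Foxc2, and overlap in the other 4 pairs.

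The genes were also set against Pdgfrb, whose protein was used to sort both populations. Pdgfrb had 5.51, 3.21, 12.5 and 17.6 FPKM in pericyte replicates 1 to 4, and 15.6, 17.4, 64.97 and 91.5 FPKM in SMC replicates 1 to 4. Replicates 3 and 4 were the higher libraries in both groups, and SMC replicates 1 and 2 were near the top of the pericyte range. Pdgfrb itself was higher in SMCs by 2.02 on the log2 scale (standard error 0.73) and did not pass (limma q = 0.0973). With the replicate number as a block it passed (limma q = 0.00601). The log2 ratio of each of the 10 genes to Pdgfrb overlapped between the groups. Between same-numbered libraries, which share no stated pairing, the ratio was higher in SMCs in 4 of 4 for Meox2. It was lower in SMCs in 4 of 4 for Tbx4 and Foxc1 (exact sign-flip p = 0.125 for each, the lowest possible with 4 pairs). The genes themselves were not lower in SMCs. Their log2 differences were 0.13 for Tbx4 and 0.81 for Foxc1, both below the 2.02 of Pdgfrb. The exact permutation p was 0.171 for Tbx4, the lowest of the 10, and the adjusted p was 0.821 or higher for all 10 ratios. Leaving out each library in turn, the difference of the ratio of Meox2, SMC minus pericyte, ranged from 0.76 to 1.68. With all libraries this difference was 1.24 (standard error 1.03) for Meox2, 0.10 (standard error 0.86) for Prrx1 and -1.89 (standard error 0.99) for Tbx4. With standard errors of this size, the missed threshold does not show that the ratios were alike.

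Replicates 1 and 2 differed from replicates 3 and 4 within groups for several of the genes, and this is given as a description. The share of all genes that split in this way was not counted. The split was not confined to these genes. Over 13612 genes, deviations from group means correlated negatively (-0.10 to -0.45) between replicates 1 or 2 of 1 group and replicates 3 or 4 of the other. In SMCs, Tbx18, Twist1, Twist2, Tbx15, Tbx4 and Meox2 were higher in both of replicates 1 and 2 than in replicates 3 and 4. The difference of log2(FPKM + 1), replicates 3 and 4 minus replicates 1 and 2, was -0.92 for Tbx18, -1.001 for Twist2, -0.75 for Twist1 and -0.47 for Tbx15. Foxs1 went the other way, with 0.97, and Pitx1 and Foxc1 did not split by these replicates. Among the summed markers, those of Schwann cells, mural cells, endothelial cells, muscle fibers and fibro-adipogenic cells were higher in SMC replicates 3 and 4, by 1.53, 1.19, 1.05, 0.56 and 0.22 on the log2 scale. The B cell and satellite cell markers were lower there, with -1.46 and -1.08. In pericytes, Meox2 (-0.75), Twist2 (-0.53), Twist1 (-0.39) and Prrx1 (-0.065) were lower in replicates 3 and 4. Prrx1 differed by little, and the Twist values rest on few fragments. For Meox2 the nearest libraries, replicates 2 and 4, had 5.21 and 4.94 FPKM. The satellite cell (-1.57), tenocyte (-1.27), B cell (-0.98) and fibro-adipogenic (-0.47) markers were also lower in pericyte replicates 3 and 4. The Schwann cell (2.26) and muscle fiber (0.34) markers were higher there. The part of these cells in the split was not tested.

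The genes whose pattern over the 8 libraries was closest to that of each transcription factor were searched for among 13612 genes whose mean over the libraries was 1 FPKM or more. Closeness was the root mean square difference of log2(FPKM + 1) after centring each gene on its own mean. The nearest to Meox2 was Sdc2, a cell surface proteoglycan, at a distance of 0.130, followed by Ms4a4d at 0.160 and the scavenger receptor gene Colec12 at 0.169. The closest to Foxs1 was Ndrg2 at 0.153, followed by the chemokine gene Ccl19 at 0.164 and the basement membrane laminin gene Lama4 at 0.170. The closest to Prrx1 was the G protein subunit gene Gnb4 at 0.144, and the closest to Twist1 was Oaf at 0.103. Sdc2 had 17.4 FPKM on average in pericytes and 146 in SMCs, and Lama4 had 5.89 and 24.7.

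Other transcription factors of the same families and roles were read from the same fit, in 6 lists that hold 75 genes. Of these, 17 were higher in SMCs and 3 were higher in pericytes (limma, q below 0.05), against shares of 11.2% and 10.6% over all genes tested. The median log2 difference over the 75 genes was 0.18. The genes named in each list are those with the largest difference among the genes that passed, up to 3 in each direction.

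Among the 27 limb patterning and mesenchyme factors, 9 were higher in SMCs and 0 in pericytes. Osr1, a marker of connective tissue progenitors in limb muscle, had 0.392 to 2.05 FPKM in pericytes and 11.5 to 24.3 FPKM in SMCs (log2 difference 3.07, limma q = 6.8e-04). Its relative Osr2 had 3.37 to 5.64 FPKM in pericytes and 21.9 to 47.8 FPKM in SMCs. Meox1, given above, was the other gene of the 3 with the largest difference, and the median over this list was 0.59.

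Among the 14 T-box relatives, 0 were higher in SMCs and 2 were higher in pericytes, and both are factors of lymphocytes. At an unadjusted p below 0.05 by limma, 3 of the 14 were higher in SMCs. Tbx21, which directs T helper 1 cells, had 15.2 to 62.2 FPKM in pericytes and 0.234 to 1.58 FPKM in SMCs (log2 difference -4.14, limma q = 8.8e-04). Eomes, which acts in cytotoxic lymphocytes, had 2.73 to 11.1 FPKM in pericytes and 0.0572 to 0.147 FPKM in SMCs (log2 difference -2.71, limma q = 0.00174). The T cell markers were higher in every pericyte library as well, and their part in these values was not tested. Among the 8 forkhead relatives, Foxc2 included, 0 passed in either direction by limma (1 was higher in SMCs at an unadjusted p below 0.05), and their median was 0.16.

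Of the 13 bHLH relatives, E-protein partners and Id inhibitors, 3 were higher in SMCs and 0 in pericytes. Id1 and Id3, which bind E-proteins and keep bHLH factors off DNA, had log2 differences of 2.11 and 1.82 (limma q = 0.00651 and 0.00969). Tcf4, an E-protein with which Twist factors can pair, had 37.03 to 68.1 FPKM in pericytes and 126 to 146 FPKM in SMCs (log2 difference 1.42, limma q = 0.00124). Among the 4 epithelial-mesenchymal transition factors, Snai1 and Snai2 were higher in SMCs, by 1.92 and 2.10 on the log2 scale (limma q = 0.00524 and 0.00341). The rest of this list, Zeb1 and Zeb2, had log2 differences of -0.12 and 0.44 and did not pass, and they are named here, with their values known, to complete it.

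Of the 9 mural cell factors, 3 were higher in SMCs and 1 in pericytes. Ebf2 had 1.11 to 4.43 FPKM in pericytes and 14.7 to 33.3 FPKM in SMCs (log2 difference 2.57, limma q = 0.00275). Nr2f2, a factor of veins and mesenchyme, and the Notch target Heyl were higher in SMCs by 1.92 and 1.18 (limma q = 0.00402 and 0.0461). Mef2c, which is also used by B cells and muscle, was higher in pericytes, at 56.8 to 82.8 FPKM against 21.7 to 34.2 FPKM in SMCs (log2 difference -1.24, limma q = 0.00246). B cell markers were higher in every pericyte library too, and their part in the Mef2c values was not tested.

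**Figure D4:**
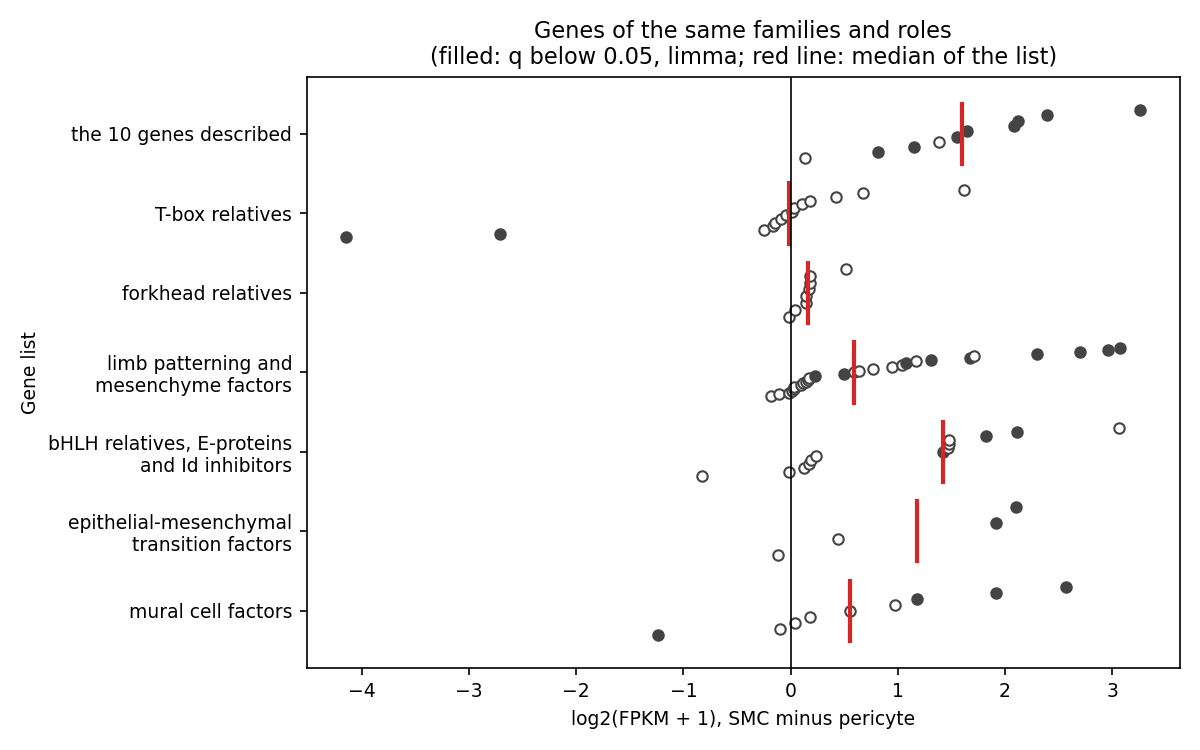
Difference of log2(FPKM + 1), SMC minus pericyte, for the 10 genes described (top row) and for 75 genes in 6 lists of related factors, with filled points for a q value below 0.05 and red lines for the median of each list. The median of the 10 genes is at 1.60, and the 2 filled points far to the left are Tbx21 and Eomes.

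The marker genes gave the following differences in the same fit. All 8 fibro-adipogenic markers and all 5 tenocyte markers were higher in SMCs, with median log2 differences of 3.50 and 3.27. Pdgfra, the receptor that marks fibro-adipogenic progenitors, had 1.19 to 4.26 FPKM in pericytes and 36.1 to 46.8 FPKM in SMCs (log2 difference 3.60, limma q = 2.1e-04). The median difference was 1.32 for the 10 mural markers, 1 of which passed (Rgs5, 1.30, limma q = 0.0240), and 2.61 for the 6 endothelial markers, 5 of which passed. When the replicate number was a block in the fit, 5 of the 10 mural markers and all 6 endothelial markers passed. All 6 T cell markers and all 5 B cell markers were higher in pericytes, with medians of -5.76 and -5.42. The myeloid markers summed to 768 to 1752 FPKM in pericyte libraries and 900.1 to 1495 FPKM in SMC libraries, and 1 of 5 passed (the macrophage gene Emr1, 0.92, limma q = 0.0437). None of the satellite cell, muscle fiber and Schwann cell markers passed (limma q above 0.05), and at an unadjusted p below 0.05 the counts were 0 of 4, 1 of 5 and 1 of 5.

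**Figure D5:**
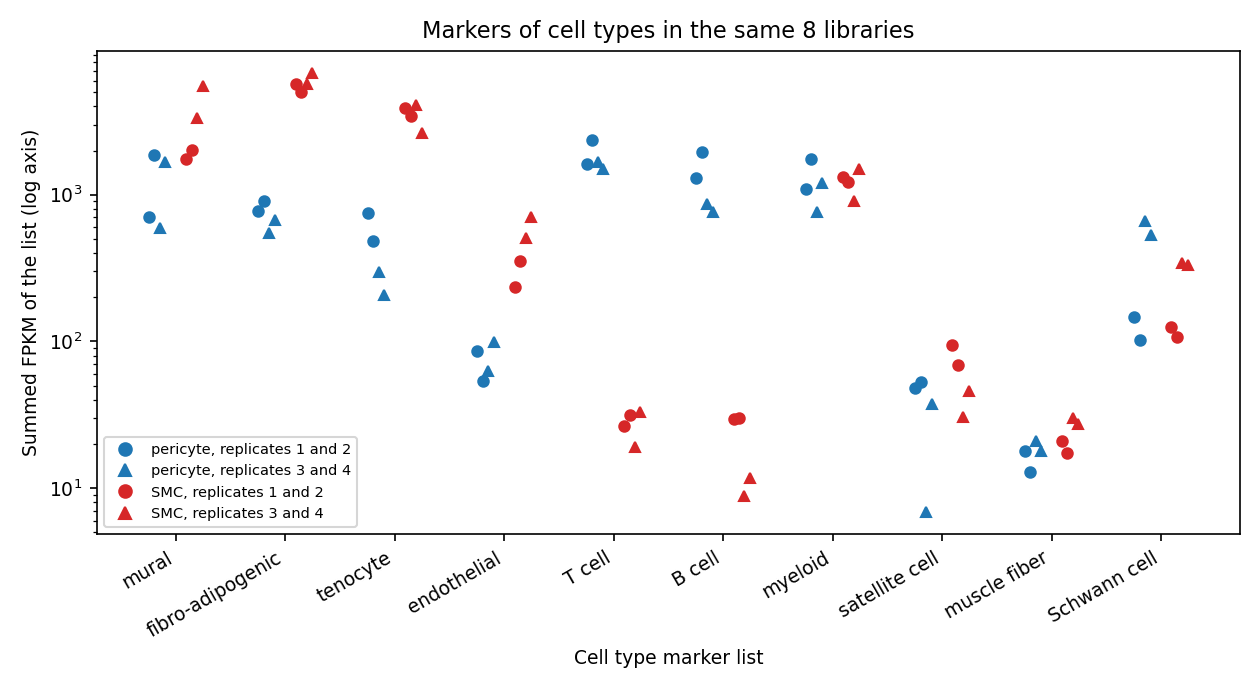
Summed FPKM (log axis) of the markers of 10 cell types in each pericyte library (blue) and SMC library (red), with circles for replicates 1 and 2 and triangles for replicates 3 and 4. Fibro-adipogenic, tenocyte and endothelial markers are higher in all 4 SMC libraries, and T cell and B cell markers in all 4 pericyte libraries.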

How the data were processed

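The authors sorted the cells, amplified the RNA, sequenced read pairs, checked them with FastQC and aligned them to NCBI Build 37 with Bowtie2 and TopHat and an Ensembl annotation. They deposited FPKM values for 37979 genes in 8 libraries; the program that computed them and any use of strand are not given in the sources used here. Values of 0 other columns were left out. For the comparison, log2(FPKM + 1) was fitted with limma (3.58.1, R 4.3.3) for 27414 genes above 0 in at least 1 library, with Benjamini-Hochberg adjustment, and the fit was tested on simulated data. Ratios were compared by exact permutation over libraries. Fragments were estimated from FPKM steps with an effective length shortened by 260 bases. Gene positions came from GENCODE version 1 (Ensembl 65, NCBI Build 37) and promoters from RefSeq (GRCm38.p6). Python 3.11.15 was used. The genes and lists were chosen with earlier results of these data known. All 10 genes are named, and up to 3 per direction with the largest difference in each list. Where a symbol had 2 listed genes, the higher was used. The alternatives changed the pseudocount, filter, scaling, trend, covariate, pairing and libraries.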

Additional observations from a re-analysis of the deposited data

Results flagged for a closer look

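In 7 of the 72 groups of 4 libraries examined, 1 library stood apart from the others, by a gap whose share of the group's whole range was above Dixon's critical value. Chance flags about 1 in 20 groups, and several of these measures share a gene. SMC replicate 3 stood apart for Pitx1 at 7.83 FPKM (gap 0.893 of the range) and for Prrx1 at 9.85 FPKM (gap 0.875), which is 3.44 on the log2(FPKM + 1) scale (gap 0.892). SMC replicate 1 stood apart for Twist2 at 12.1 FPKM (gap 0.837). Pericyte replicate 2 stood apart for the log2 ratio of Twist2 over Twist1, at 0.37 (gap 0.939), and for that of Prrx1 over Prrx2, at 0.53 (gap 0.846). SMC replicate 4 stood apart for the log2 ratio of Pitx1 over Pdgfrb, at -5.51 (gap 0.893).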

How the results depend on the processing

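Of the 10 genes, 7 had a limma q value below 0.05 in all 17 alternative settings, Tbx18 in 15, Pitx1 in 5 and Tbx4 in 0. These settings reuse the same libraries, and the share of all genes that passed in all 17 was not counted. With a pseudocount of 0.1, 7 of the 10 exceeded a log2 difference of 2, against 4 with a pseudocount of 1, because a smaller pseudocount shrinks low values less. The share of all genes exceeding 2 was not counted with a pseudocount of 0.1. That pseudocount also turned the sign of 3 differences of log2 ratios that had not passed, to -0.53 for Prrx1 over Prrx2, 0.50 for Pitx1 over Pdgfrb and 0.88 for Twist1 over Pdgfrb. Leaving out each library in turn, the log2 difference of Tbx4 ranged from -0.011 to 0.29 and that of the Prrx1 over Prrx2 ratio from -0.081 to 0.99. For ratios to Pdgfrb the range was -0.18 to 0.87 for Tbx15, -1.06 to 0.045 for Pitx1, -1.03 to 0.16 for Twist1, -0.70 to 0.69 for Twist2 and -0.33 to 0.50 for Prrx1, and the cause was not tested. Same-numbered libraries correlated by 0.0794 to 0.474 (mean 0.327) in their deviations from group means, and 5 of 8 libraries correlated best with their own number. The sources used state no pairing of same-numbered libraries, and these values do not settle whether they were paired. The main fit took no account of the number. With the replicate number as a block, 9 of the 10 genes passed, Pitx1 included (limma q = 0.0374). The share of all genes that passed with this block was not counted. The block also moved the count higher in SMCs from 1 to 5 of the 10 mural markers, from 0 to 2 of the 14 T-box relatives and from 0 to 1 of the 5 muscle fiber markers. Smaller moves were from 9 to 10 limb factors, 3 to 4 bHLH relatives, 3 to 4 mural cell factors and 5 to 6 endothelial markers. Among the limb factors, Alx4 passed without the block (limma q = 0.0292) and did not pass with it (limma q = 0.0798). Of the 10 ratios to Pdgfrb, those of Meox2, Tbx4 and Foxc1 differed in 1 direction in 4 of 4 same-numbered pairs; their exact sign-flip p of 0.125 is the lowest possible with 4 pairs. Among the 6 genes with a fragment estimate, depth limits Twist1 and Twist2 in pericytes most, at 3 to 27 fragments a library; Pitx1, as low in FPKM there, has no estimate.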

Other observations

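Within SMCs, replicate 1 held the highest level of Twist2, of the Prrx1 paralog Prrx2 and of Scx, the bHLH factor of tendon. It was also the highest SMC library for Tbx18, Tbx15, Tbx4, Twist1 and Prrx1. Pitx1, Foxc1, Foxs1 and Meox2 were highest in other SMC replicates. Scx had 172.6, 35.5, 9.74 and 4.11 FPKM in SMC replicates 1 to 4, and 0.544 to 7.48 FPKM in pericytes (limma q = 0.104). Twist2, Prrx2 and Scx were put side by side after their values were seen. Of the 5 tenocyte markers, Tnmd, Mkx and Kera were also highest in SMC replicate 1 and lowest in SMC replicate 4, with Tnmd at 1315, 1176, 515.7 and 383 FPKM. Fmod and Thbs4 were highest in SMC replicate 3, at 2277 and 933 FPKM, as was the sum of the 5 markers.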
